A study of Mus musculus with 2 samples.

Results

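The *Frizzled* genes encode the cell-surface receptors of WNT proteins, and the mouse has 10 of them, *Fzd1* to *Fzd10*. They were taken from the deposited count table by gene symbol, and all 10 symbols were found among its 24421 rows. Read counts were available from 1 library of primary chondrocytes and 1 library of primary dermal fibroblasts. The chondrocytes came from rib cartilage of newborn mice, digested with collagenase and used within 2 passages, and the dermal fibroblasts came from dorsal skin of newborn mice. Neither group carried a treatment or an engineered allele in the labels, and strain, sex and number of animals were not given there. The deposited counts summed to 18788599 in chondrocytes and 17563724 in dermal fibroblasts.

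A WNT binds the extracellular cysteine-rich domain of a Frizzled receptor. Together with the co-receptors LRP5 and LRP6 the complex recruits Dishevelled and stabilizes β-catenin, and with other partners such as ROR2, RYK or PTK7 Frizzled receptors act on cell polarity and movement without β-catenin. In growing cartilage, WNT signalling is known to restrain the chondrocyte fate and to order the columns of dividing cells, and in skin it is known for its part in dermal and hair follicle development.

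By sequence the family falls into 4 subfamilies, *Fzd1*/*Fzd2*/*Fzd7*, *Fzd5*/*Fzd8*, *Fzd4*/*Fzd9*/*Fzd10* and *Fzd3*/*Fzd6*, and the results are given in this order. A count can only be credited to 1 member where the members differ in sequence, so a stretch of the cysteine-rich domain is shown first. It is the longest run of coding bases that *Fzd1* and *Fzd7* share without a difference, at 47 bases. The longest run shared by *Fzd1* and *Fzd2* also has 47 bases, lies elsewhere and is not shown. The best ungapped match to the stretch shared by *Fzd1* and *Fzd7* is printed below 5′ to 3′ for 9 of the 10 members, and *Fzd8* is not shown. Capitals mark bases that differ from *Fzd1*, and positions count from 1 at the A of the start codon in the GENCODE vM1 transcripts.
Fzd1, coding positions 571 to 617: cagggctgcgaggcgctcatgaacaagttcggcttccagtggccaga
Fzd7, coding positions 385 to 431: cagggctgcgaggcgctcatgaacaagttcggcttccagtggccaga
Fzd2, coding positions 370 to 416: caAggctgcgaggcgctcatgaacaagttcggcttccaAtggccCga
Fzd5, coding positions 340 to 386: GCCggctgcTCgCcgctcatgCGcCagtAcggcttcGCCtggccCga
Fzd4, coding positions 376 to 422: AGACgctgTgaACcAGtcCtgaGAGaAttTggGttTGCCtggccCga
Fzd9, coding positions 361 to 407: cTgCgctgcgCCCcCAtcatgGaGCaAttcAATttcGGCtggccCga
Fzd10, coding positions 346 to 392: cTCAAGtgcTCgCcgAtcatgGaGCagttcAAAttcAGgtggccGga
Fzd3, coding positions 322 to 368: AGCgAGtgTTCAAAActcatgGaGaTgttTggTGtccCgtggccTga
Fzd6, coding positions 310 to 356: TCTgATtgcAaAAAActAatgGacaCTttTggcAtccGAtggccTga

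From *Fzd1*, the stretch differed at 0 bases in *Fzd7*, 3 in *Fzd2*, 14 in *Fzd5*, 18 in *Fzd9* and in *Fzd10*, 19 in *Fzd6*, 20 in *Fzd3* and 21 in *Fzd4*. The reads were 75 bases long, which is longer than this shared stretch. Over the whole transcripts, 0 of the 75-base words of any *Frizzled* gene occurred in a protein-coding transcript of another gene. The closest of the 45 pairs was *Fzd1* and *Fzd2*, with 1 mismatch in the most similar 75-base window. The fewest mismatches were 3 for *Fzd1* with *Fzd7* and for *Fzd2* with *Fzd7*, and 4 for *Fzd5* with *Fzd8*. Each of the other pairs differed at 7 bases or more. At 88 window positions, 2.05% of those of *Fzd1* and 2.48% of those of *Fzd2*, a read differed from the other gene by 2 bases or fewer. The split of such reads between *Fzd1* and *Fzd2* is uncertain, whereas *Fzd9*, *Fzd6* and *Fzd8*, which the results turn on, had 0 such windows against other members.

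All 10 members had counts in both libraries, and *Fzd9* differed most between the cell types. With 648 counts in chondrocytes against 29 in dermal fibroblasts, its scaled count was 23.0-fold higher in chondrocytes, with a 95% counting interval of 15.8 to 34.5. *Fzd6* was 4.22-fold and *Fzd8* 2.85-fold higher in chondrocytes, and the other 7 members differed by less than 2-fold. Thus 3 of 10 members exceeded 2-fold in favour of chondrocytes and 0 exceeded it in favour of dermal fibroblasts. Of all 13825 genes with at least 20 counts summed over both libraries, 10.9% were over 2-fold higher in chondrocytes and 15.3% over 2-fold higher in dermal fibroblasts. Without regard to direction, 3 of 10 members and 26.1% of all these genes exceeded 2-fold, so that the family was near the share of all genes.

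Folds are ratios of counts scaled with trimmed mean of M-values (TMM) factors computed on the whole table, which multiply the raw ratio of chondrocytes to dermal fibroblasts by 1.03. The interval is an exact Clopper-Pearson interval and covers counting error only. With 1 library per cell type, none of the differences could be checked against replicates and no p-value was computed, so that "higher" refers to these libraries. In bulk RNA, fewer cells expressing a gene and less RNA per cell cannot be told apart. All 10 members passed the minimum of 20 summed counts, the lowest being *Fzd10* with 26.

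**Figure D1:**
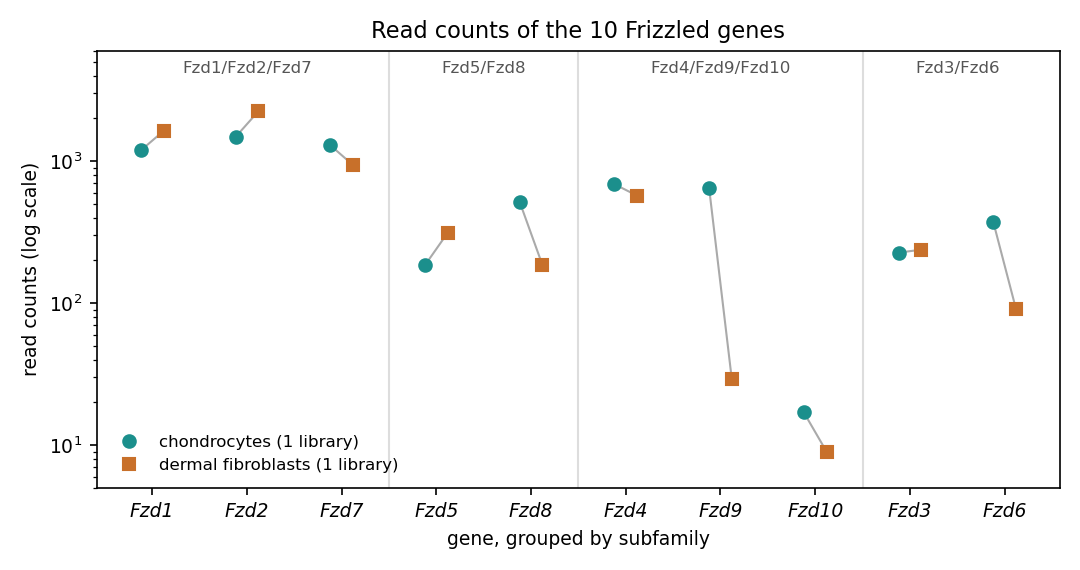
Deposited read counts of the 10 Frizzled genes (log axis) in the chondrocyte library (circles) and the dermal fibroblast library (squares), grouped by subfamily, with a line joining the values of a gene. *Fzd9* lies at 648 counts in chondrocytes and 29 in dermal fibroblasts, *Fzd6* at 374 and 91, and *Fzd3* at 227 and 238.

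For *Fzd9*, *Fzd6* and *Fzd8* the entire interval exceeded 2-fold in favour of chondrocytes, as it did for 7.00% of all genes with at least 20 counts. In favour of dermal fibroblasts it did so for 0 members and 10.6% of all such genes. Over 4-fold higher in chondrocytes were 2 members, *Fzd9* and *Fzd6*, and 4.57% of all such genes. No member was over 4-fold higher in dermal fibroblasts, against 6.26% of all such genes. Without regard to direction, the entire interval exceeded 2-fold for 17.6% of all such genes, and 10.8% of them were over 4-fold different. *Fzd9* exceeded 99.1% of these genes in its log2 fold of 4.52, and *Fzd6* exceeded 95.6% in its log2 fold of 2.08. Over the 10 members the median log2 fold was 0.41, against −0.0019 over all genes with at least 20 counts. The median size of the log2 fold regardless of direction was 0.64 for the members and 0.47 for all such genes. The interval lay above 1 for 5 members, below 1 for 3 members and included 1 for 2, *Fzd3* and *Fzd10*. The share of all genes whose interval excluded 1 was not computed, so these counts cannot be read as a trait of the family.

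**Figure D2:**
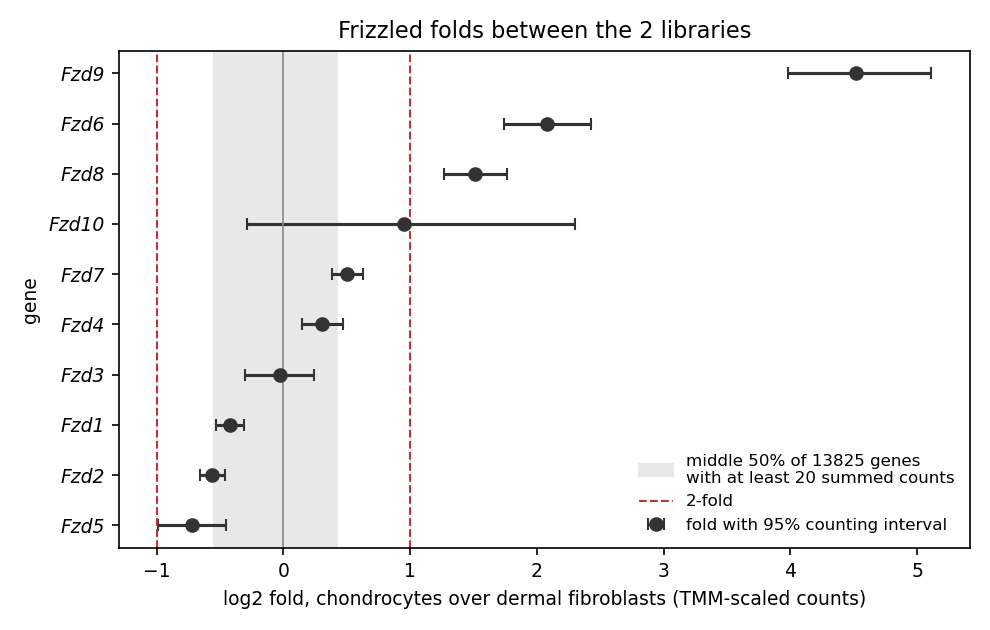
Log2 fold of TMM-scaled counts, chondrocytes over dermal fibroblasts, for each Frizzled gene (points) with its 95% counting interval (bars), the middle 50% of all genes with at least 20 summed counts (grey band) and 2-fold in either direction (dashed lines). *Fzd9*, *Fzd6* and *Fzd8* lie with their whole interval beyond 2-fold, and the interval of *Fzd10* spans both 1-fold and 2-fold.

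The members of the *Fzd1*/*Fzd2*/*Fzd7* subfamily, which bind WNTs that signal through β-catenin as well as others, had the most counts in both libraries. *Fzd2* (chr11:102604431-102608058; positions are RefSeq's for GRCm38, the mm10 build) had 1481 counts in chondrocytes against 2241 in dermal fibroblasts, 1.47-fold higher in dermal fibroblasts (interval 1.38 to 1.57). *Fzd1* (chr5:4753839-4758216) had 1190 and 1633 counts, 1.34-fold higher in dermal fibroblasts (interval 1.24 to 1.44). *Fzd7* (chr1:59482147-59486955) went the other way, with 1297 counts in chondrocytes against 940 in dermal fibroblasts, 1.42-fold higher in chondrocytes (interval 1.30 to 1.54). All 3 differences were thus larger than counting error and below 2-fold, and *Fzd7* differed in direction from the other two. Summed, the subfamily had 3968 counts in chondrocytes against 4814 in dermal fibroblasts, 1.18-fold higher in dermal fibroblasts (interval 1.13 to 1.23).

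Of the *Fzd5*/*Fzd8* pair, 1 gene was higher in each cell type. *Fzd5* (chr1:64730558-64737750), a receptor known from eye and gut development, had 185 counts in chondrocytes against 313 in dermal fibroblasts. This is 1.65-fold higher in dermal fibroblasts (interval 1.37 to 1.99), the lowest log2 fold of the family at −0.72. *Fzd8*, on chromosome 18, had 517 counts in chondrocytes against 186 in dermal fibroblasts, 2.85-fold higher in chondrocytes (interval 2.41 to 3.39). These 2 close relatives were 2.23 apart in log2 fold.

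The *Fzd4*/*Fzd9*/*Fzd10* subfamily held the widest spread, 4.21 in log2 fold between its lowest and highest member. *Fzd9* (chr5:135248938-135251047), whose human counterpart lies in the region deleted in Williams syndrome and whose loss in mice is known to lower bone formation, had 36.2 counts per 1000000 after scaling in chondrocytes and 1.58 in dermal fibroblasts. *Fzd4* (chr7:89404366-89410110), the receptor of norrin in retinal vessels, had 689 counts in chondrocytes against 572 in dermal fibroblasts, 1.24-fold higher in chondrocytes (interval 1.11 to 1.38). *Fzd10* (chr5:128601106-128604093) had 17 and 9 counts. Its ratio of 1.94 had an interval of 0.818 to 4.94, so that a difference was not detectable at this depth. *Fzd9* therefore stood apart from both of its closest relatives.

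*Fzd3* and *Fzd6* are known for axon guidance and for the orientation of hairs, both part of planar cell polarity. *Fzd6* (chr15:39006149-39038192) had 374 counts in chondrocytes against 91 in dermal fibroblasts, 4.22-fold higher in chondrocytes (interval 3.35 to 5.37). *Fzd3* (chr14:65192441-65262463) had 227 counts in chondrocytes against 238 in dermal fibroblasts. Its ratio of 0.980 had an interval of 0.813 to 1.18. The pair was thus 2.11 apart in log2 fold, and only *Fzd6* of the pair lay beyond 2-fold.

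The summed counts of the family differed little between the cell types, while its make-up differed. The 10 genes had 6625 counts in chondrocytes against 6252 in dermal fibroblasts, or 352.6 and 356 per 1000000 of all counts. The TMM-scaled sum was 1.09-fold higher in chondrocytes (interval 1.05 to 1.13), whereas per 1000000 of all counts it was slightly lower there. The direction of this small difference thus depended on the scaling. Without *Fzd9* the ratio of TMM-scaled sums was 0.986 (interval 0.952 to 1.02). Summed per kilobase of exon, the scaled level of the 10 genes was 97.7 in chondrocytes and 83.5 in dermal fibroblasts. The *Fzd1*/*Fzd2*/*Fzd7* subfamily held 59.9% of the family's counts in chondrocytes (exact binomial interval 58.7 to 61.1%) and 77.0% in dermal fibroblasts (75.9 to 78.0%). The *Fzd4*/*Fzd9*/*Fzd10* subfamily held 20.4% (19.5 to 21.4%) against 9.76% (9.03 to 10.5%), *Fzd5*/*Fzd8* 10.6% against 7.98%, and *Fzd3*/*Fzd6* 9.07% against 5.26%. *Fzd9* alone made up 9.78% of the family's counts in chondrocytes (9.08 to 10.5%) and 0.464% in dermal fibroblasts (0.311 to 0.665%). These shares need no scaling between libraries, but they depend on whether counts are divided by gene length. Per exon length, *Fzd1*/*Fzd2*/*Fzd7* held 54.3% in chondrocytes and 77.2% in dermal fibroblasts.

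Set against *Fzd2*, the member with the most counts in both libraries, the counts of *Fzd9* came to 43.8% in chondrocytes and 1.29% in dermal fibroblasts, those of *Fzd6* to 25.3% and 4.06%, and those of *Fzd8* to 34.9% and 8.30%. *Fzd7* came to 87.6% of *Fzd2* in chondrocytes against 41.9% in dermal fibroblasts, which is a 2.09-fold difference within the *Fzd1*/*Fzd2*/*Fzd7* subfamily.

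Levels of different genes were compared per length, as scaled counts per 1000000 and per kilobase of exon. *Fzd2* had the highest level in both cell types, 22.8 in chondrocytes and 33.6 in dermal fibroblasts. In chondrocytes it was followed by *Fzd9* at 15.8, *Fzd1* at 15.2 and *Fzd7* at 15.1, and these neighbours did not differ beyond their counting intervals. *Fzd4* at 10.4, *Fzd8* at 8.62, *Fzd6* at 5.11, *Fzd3* at 3.0, *Fzd5* at 1.49 and *Fzd10* at 0.292 came next, and the counting interval of each ratio to the next gene lay above 1. In dermal fibroblasts the order was *Fzd1* at 20.3, *Fzd7* at 10.6, *Fzd4* at 8.43, *Fzd3* at 3.06, *Fzd8* at 3.02, *Fzd5* at 2.46, *Fzd6* at 1.21, *Fzd9* at 0.687 and *Fzd10* at 0.150. There only *Fzd3* and *Fzd8* did not differ beyond the interval. *Fzd9* thus ranked 2 of 10 in chondrocytes and 9 of 10 in dermal fibroblasts, and *Fzd10* was last in both.

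The rank of *Fzd9* in chondrocytes depended on the length used, since its annotated exons of 2293 bases were the shortest of the family and those of *Fzd5*, at 6912 bases, the longest. Per kilobase of coding sequence, *Fzd9* at 20.3 ranked 5 of 10 in chondrocytes, below *Fzd2* at 48.2, *Fzd7* at 42.1, *Fzd1* at 34.4 and *Fzd4* at 23.8. Its share of the family's level in chondrocytes was 16.1% per exon length and 9.89% per coding length, and in dermal fibroblasts 0.823% and 0.465%. The fold between the cell types does not depend on the length.

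**Figure D3:**
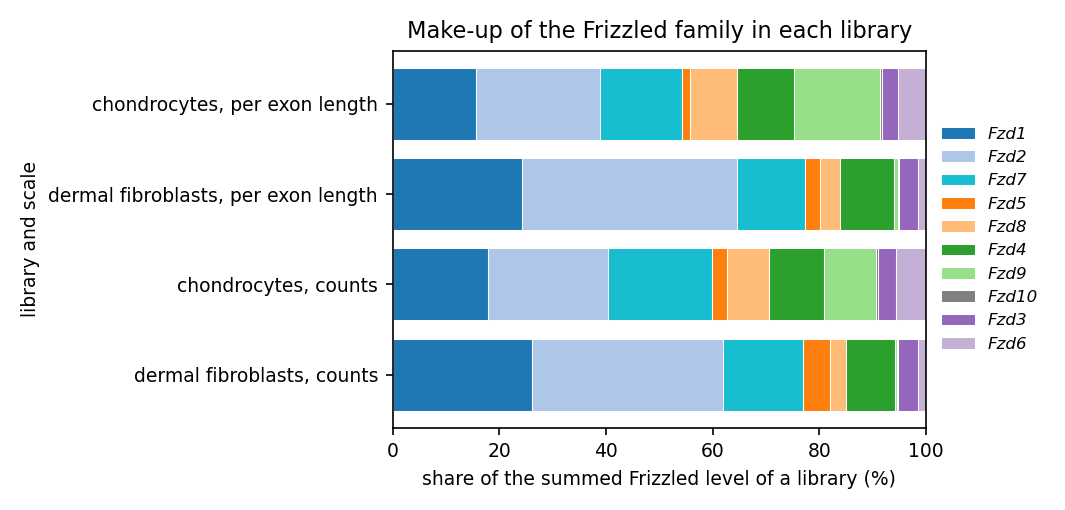
Share of each Frizzled gene in the summed level of the family (percent), for both libraries, per kilobase of exon (upper pair of bars) and as plain counts (lower pair). *Fzd1*, *Fzd2* and *Fzd7* together take 77.0% of the counts in dermal fibroblasts and 59.9% in chondrocytes, and *Fzd9* takes 0.464% and 9.78%.

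The genes next to the *Frizzled* genes were examined after their values had been seen. Of the flanking genes, only those of *Fzd9*, *Fzd6* and *Fzd7* are named. *Baz1b*, which encodes a chromatin remodelling factor and lies 2806 bases from *Fzd9*, had 3213 counts in chondrocytes against 3486 in dermal fibroblasts, a ratio of 0.947 (interval 0.902 to 0.993). The gene nearest to *Fzd9* thus did not share its difference. *Fkbp6*, on the other side of *Fzd9*, had 1 and 1 counts, too few for a comparison. *Cthrc1*, which encodes a secreted collagen triple helix protein and lies 38739 bases from *Fzd6*, had 974 and 288 counts and was 3.47-fold higher in chondrocytes (interval 3.04 to 3.98). *Baalc*, on the other side of *Fzd6*, had 35 and 43 counts, a ratio of 0.836 (interval 0.519 to 1.34). Beside *Fzd7*, *Cdk15* had 7 counts in chondrocytes and 94 in the other library, and *Gm973* had 83 and 1, so that the neighbours of *Fzd7* differed in opposite directions. *Fzd4* shares 338 bases of its span with *Tmem135*, which had 509 and 639 counts. *Fzd6* shares 921 bases of its span with *Gm26704*, a long non-coding RNA gene. *Fzd3* shares 958 and 851 bases with the pseudogenes *Gm9086* and *Gm52141*. *Gm26704* and these pseudogenes were not found among the rows of the count table. How reads in any of these overlaps were assigned is not given in the sources used here.

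Genes whose scaled counts in the 2 libraries were most like those of *Fzd9* were *Chadl* with 622 and 24 counts, *Cybrd1* with 753 and 34, and *Scube1* with 698 and 36. *Chadl* encodes a chondroadherin-like cartilage protein, and *Cybrd1* an iron reductase. Likeness was the Euclidean distance in log2 scaled counts over the 2 libraries, 0.279, 0.316 and 0.330 for these genes. The nearest to *Fzd5*, the member with the lowest fold, were *Txnrd3* with 184 and 310 counts, *Plekhg1* with 187 and 309, and *Zc3h12a* with 190 and 304, at distances of 0.0159, 0.0242 and 0.0570.

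Around the receptors, lists of other WNT pathway genes were compared in the same way. A last list, of other proteins with a Frizzled domain such as the Hedgehog signal transducer *Smo*, is included in the pooled counts. Of 108 genes, 89 had at least 20 summed counts, and of these 18 (20.2%) were over 2-fold higher in chondrocytes and 21 (23.6%) over 2-fold higher in dermal fibroblasts. Over all genes with at least 20 summed counts these shares were 10.9% and 15.3%, and 26.1% without regard to direction. These shares of all genes are also the background for the counts of each single list below. The median log2 fold of the 89 genes was −0.02. No test was run on any list, and the counts describe these libraries.

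**Figure D4:**
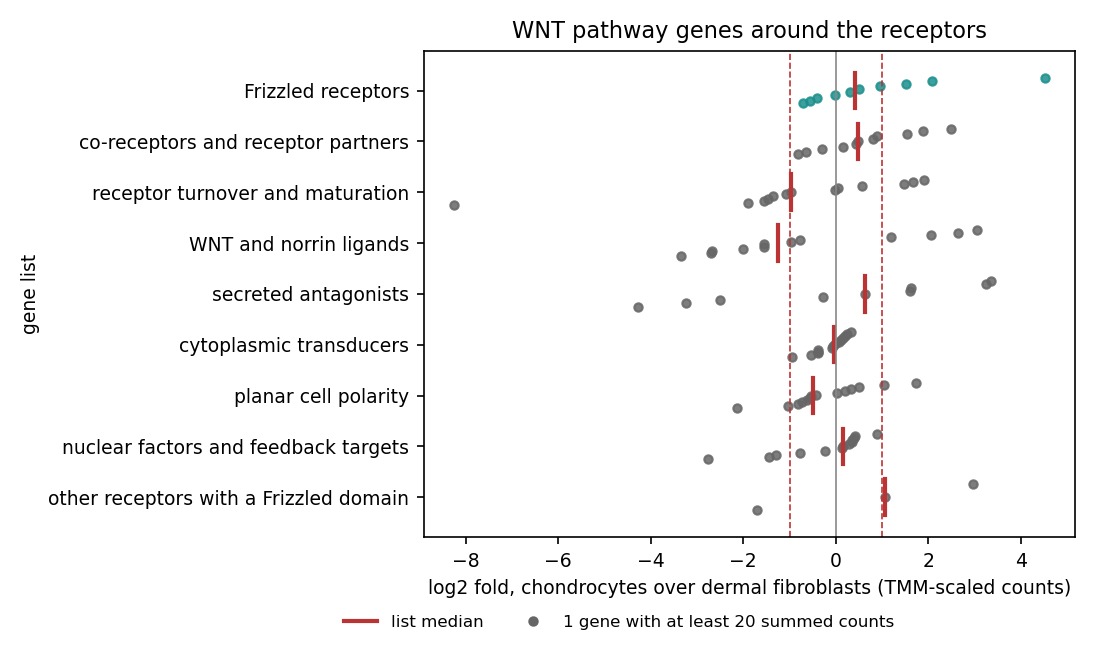
Log2 fold of TMM-scaled counts, chondrocytes over dermal fibroblasts, for each gene with at least 20 summed counts in the Frizzled family and in 8 other lists (points), with the median of each list (red bars) and 2-fold in either direction (dashed lines). The other lists hold WNT pathway genes and, in the last, other proteins with a Frizzled domain. The 14 cytoplasmic transducers all lie within 2-fold with this scaling (1 lies beyond it with total counts), whereas ligands and secreted antagonists spread to both sides and the lowest point, *Lgr5*, had 9 counts in chondrocytes against 2831 in dermal fibroblasts.

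Of the ligands, 12 of 20 had at least 20 summed counts, with 4 over 2-fold higher in chondrocytes and 6 in dermal fibroblasts and a median log2 fold of −1.25. Over all 20 without the minimum the median was −0.37. *Wnt5a*, a ligand best known for signalling without β-catenin, had 473 counts in chondrocytes against 829 in dermal fibroblasts, 1.71-fold higher in dermal fibroblasts (interval 1.52 to 1.91). *Wnt16* had 34 and 354 counts, 10.1-fold higher in dermal fibroblasts, *Wnt4* had 71 and 469, 6.43-fold higher, and *Wnt9a*, known from joint formation, had 75 and 227, 2.95-fold higher. *Wnt11* went the other way with 193 and 32 counts, 6.19-fold higher in chondrocytes (interval 4.25 to 9.31). Of the 5 ligands named, 4 were thus higher in dermal fibroblasts and *Wnt11* was higher in chondrocytes, but genes were named by abundance and a minimum of counts. Over the whole list, the entire interval lay beyond 2-fold for 3 ligands in each direction.

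All 11 co-receptors and receptor partners passed the minimum of counts, with 3 over 2-fold higher in chondrocytes, 0 in dermal fibroblasts and a median log2 fold of 0.47. The 3 were *Lrp4*, which binds sclerostin and agrin, with 2134 and 391 counts (5.61-fold, interval 5.03 to 6.26), *Musk*, a receptor kinase with a Frizzled-like domain, with 184 and 51 counts (3.71-fold, interval 2.70 to 5.16), and *Adgra2*, which serves WNT7 signalling in vessels, with 1675 and 591 counts (2.91-fold, interval 2.65 to 3.20). Of 8 skeletal muscle markers, 4 were also over 2-fold higher in chondrocytes. The part of muscle cells in the *Musk* value was not tested. *Lrp6*, a co-receptor of the β-catenin branch, had 2955 and 1740 counts and was 1.74-fold higher in chondrocytes (interval 1.64 to 1.85). *Ptk7* and *Ryk*, partners in signalling without β-catenin, were 1.76-fold (2803 and 5059 counts) and 1.56-fold (2572 and 4130 counts) higher in dermal fibroblasts.

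Of 17 genes for the turnover and maturation of Frizzled receptors and WNTs, 13 passed the minimum of counts. Of these, 3 were over 2-fold higher in chondrocytes, 6 were so in dermal fibroblasts and 4 were within 2-fold. The median log2 fold was −0.97, and over all 17 genes without the minimum it was −0.02. Among the R-spondin receptors, which protect Frizzled receptors from degradation, *Lgr5* had 9 counts in chondrocytes against 2831 in dermal fibroblasts, 306-fold higher in dermal fibroblasts (interval 161 to 670). *Lgr6* had 59 and 178 counts, 2.94-fold higher in dermal fibroblasts, whereas *Lgr4* had 2687 and 868 counts and was 3.18-fold higher in chondrocytes (interval 2.94 to 3.44). The 3 R-spondin receptors thus differed in direction.

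The R-spondins themselves were split as well. *Rspo3* had 635 and 174 counts, 3.75-fold higher in chondrocytes (interval 3.16 to 4.46), and *Rspo1* had 41 and 157 counts, 3.73-fold higher in dermal fibroblasts (interval 2.63 to 5.39). *Shisa2*, which holds immature Frizzled receptors in the endoplasmic reticulum, had 258 and 96 counts, 2.76-fold higher in chondrocytes. *Apcdd1*, a membrane inhibitor of WNT signalling known from hair follicles, had 396 and 1123 counts, 2.76-fold higher in dermal fibroblasts. *Wls*, the carrier that brings WNTs to the cell surface, had 2051 and 5368 counts, 2.55-fold higher in dermal fibroblasts (interval 2.42 to 2.68), and *Mesdc2*, a chaperone of LRP5 and LRP6, had 2145 and 2230 counts, a ratio of 0.988 (interval 0.931 to 1.05).

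Of 13 secreted antagonists, 9 passed the minimum of counts, with 4 over 2-fold higher in chondrocytes and 3 in dermal fibroblasts. Their median log2 fold was 0.62, with a minimum of 100 summed counts it was −0.27, and over all 13 without a minimum it was 0.30. *Frzb*, a decoy with a Frizzled domain that is known from cartilage, had 638 and 69 counts and was 9.50-fold higher in chondrocytes (interval 7.40 to 12.4), and *Notum*, which removes the lipid of WNTs, had 105 and 35 counts and was 3.08-fold higher. Another decoy with a Frizzled domain, *Sfrp2*, had 1658 and 9692 counts and was higher in dermal fibroblasts by 5.69-fold (interval 5.40 to 6.0), whereas *Sfrp1* had 1388 and 927 counts, 1.54-fold higher in chondrocytes. *Dkk3* and *Dkk2*, of the Dickkopf family, were 19.4-fold (174 and 3461 counts) and 9.48-fold (30 and 292 counts) higher in dermal fibroblasts. Of these 3 decoys with a Frizzled domain, *Frzb* and *Sfrp1* were thus higher in chondrocytes and *Sfrp2* in dermal fibroblasts. *Sfrp4* (56 and 19 counts) and *Sfrp5* (30 and 2 counts), of the same family and named after their values were seen, were higher in chondrocytes.

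Of 14 cytoplasmic transducers, 0 were over 2-fold different in either direction, with a median log2 fold of −0.04. With counts scaled by their totals, 1 of them, *Dvl2*, a Dishevelled gene named after its values were seen, was over 2-fold higher in dermal fibroblasts (617 and 1217 counts, 1.92-fold with TMM). Among the most abundant, *Ctnnb1*, which encodes β-catenin, had 16769 and 14654 counts (1.18-fold, interval 1.15 to 1.20). *Gnas* had 24165 and 25810 counts and *Csnk1a1*, a kinase of the β-catenin destruction complex, had 4805 and 3953. Of 15 planar cell polarity genes, 14 passed, with 2 over 2-fold higher in each cell type and a median log2 fold of −0.49. By the whole interval beyond 2-fold it was 1 in each, and 4 of the 5 other scalings gave 1 in place of 2 in one direction. *Daam2*, a formin that binds Dishevelled, had 930 and 290 counts, 3.29-fold higher in chondrocytes, its relative *Daam1* had 627 and 945, 1.47-fold higher in dermal fibroblasts, and the polarity cadherin *Celsr1* had 20 and 90, 4.38-fold higher in dermal fibroblasts. *Scrib* with 1489 and 1226 counts and *Prickle1* with 810 and 585 were within 2-fold.

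Of 14 nuclear factors and feedback targets, 13 passed, with 0 over 2-fold higher in chondrocytes and 3 in dermal fibroblasts and a median log2 fold of 0.15. *Axin2*, a common readout of β-catenin signalling, had 69 and 194 counts and was higher in dermal fibroblasts by 2.74-fold (interval 2.07 to 3.66), and *Nkd2*, a feedback inhibitor, had 164 and 1150 counts and was 6.83-fold higher (interval 5.79 to 8.09). *Myc* had 1945 and 1083 counts, 1.84-fold higher in chondrocytes (interval 1.71 to 1.99), *Ccnd1* had 2675 and 2472, and *Pygo2*, a β-catenin cofactor, had 1200 and 1447. *Nkd1*, the close relative of *Nkd2* and named after its values were seen, had 679 and 544 counts and was 1.28-fold higher in chondrocytes (interval 1.14 to 1.44), so that feedback inhibitors differed in direction. Of the 4 genes in a last list, of other proteins with a Frizzled domain, 3 passed. *Smo*, the Hedgehog signal transducer, had 4849 and 2392 counts, 2.08-fold higher in chondrocytes (interval 1.98 to 2.19), *Corin* had 38 and 5 counts, 7.81-fold higher in chondrocytes (interval 3.07 to 25.4), and *Cpz* had 30 and 101, 3.28-fold higher in dermal fibroblasts (interval 2.16 to 5.11).

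The labelled cell types were checked against marker lists. All 10 chondrocyte markers were over 2-fold higher in chondrocytes, with 2008844 summed counts against 1241, and *Col2a1* had 1447098 counts in chondrocytes against 0 in dermal fibroblasts. Of 10 fibroblast markers, 9 were over 2-fold higher in dermal fibroblasts, with 111591 summed counts in chondrocytes against 894944 in dermal fibroblasts. Markers of other cell types were also present and moved with the cell types. In dermal fibroblasts, 6 of 8 keratinocyte markers were over 2-fold higher (163 against 4834 summed counts), 5 of 6 endothelial markers (261 against 907), 5 of 5 melanocyte markers (165 against 1124, with *Dct* and *Tyrp1* at 0 in chondrocytes), 3 of the 4 Schwann cell markers with at least 20 counts (311 against 1071) and 1 of 5 macrophage markers (1800 against 2943). In chondrocytes, 4 of 8 skeletal muscle markers were over 2-fold higher, with 31215 summed counts in chondrocytes against 23231 in dermal fibroblasts. The part of these other cells in the values of the *Frizzled* genes and of the pathway lists was not tested.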

How the data were processed

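RNA-Seq of 1 chondrocyte and 1 dermal fibroblast library was analysed. Stranded mRNA libraries were read as 75 bp single-end reads. Per the submitters' processing notes, the authors used CASAVA 1.8.2, TopHat2 2.0.13, Bowtie2 2.2.3, SAMtools 0.1.19 and mm10. The counts deposited by the authors are whole numbers of reads for each symbol, without normalization, and the counting program, annotation and strand setting are not given in the sources used here.

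Counts under 3 were set to 3, and counts were scaled with edgeR 4.0.16 TMM factors (R 4.3.3) on the whole table. Ratios and 95% Clopper-Pearson intervals were computed in Python 3.11.15 (pandas 2.3.3, scipy 1.17.1, numpy 2.4.6), and figures drawn with matplotlib 3.10.9. The reads carry no molecular identifiers and so are not independent molecules, and an interval covers counting error alone. Background counts were over the 13825 genes with at least 20 summed counts. With 1 library per cell type no test was made. The computation of folds and intervals was tested on simulated Poisson counts of well-covered genes. TMM scaling, genes with few counts and variation between replicates were not part of that test.

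Alternatives were total counts, DESeq2 1.42.0 size factors, the upper quartile, total counts without the 10 most abundant genes, *Actb*, a floor of 1 or of 10 counts, 1 added as a pseudocount, no filter, a minimum of 100 counts, a fold over 4, the whole interval beyond 2-fold, and other gene lengths. Exon and coding lengths and sequences are from GENCODE vM1, of which no coordinates were used. Positions are RefSeq's for GRCm38.

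The members and lists were chosen with earlier results of these data known. Genes named were the *Frizzled* genes, the 3 most abundant genes of each list and up to 4 of the largest folds in each direction with at least 100 counts and the whole interval beyond 2-fold, the 3 nearest in pattern to the members with the highest and lowest fold, and the 2 most abundant markers of a list where a value is given. *Tyrp1*, *Tmem135*, *Dvl2*, *Nkd1*, *Sfrp4*, *Sfrp5* and the neighbouring genes were chosen after their values were seen. The genes overlapping *Fzd6* and *Fzd3* were named for their position.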

Additional observations from a re-analysis of the deposited data

How the results depend on the processing

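The direction of 9 of the 10 *Frizzled* ratios was the same under each of the 5 other scalings, both other floors and the pseudocount. Over these settings *Fzd9* ranged from 20.9- to 25-fold, *Fzd6* from 3.84- to 4.60-fold and *Fzd8* from 2.60- to 3.11-fold, all higher in chondrocytes. *Fzd3* ranged from 0.892 to 1.07 and its direction turned with the upper quartile, with total counts without the 10 most abundant genes and with *Actb*. *Fzd10* ranged from 1.75- to 2.11-fold, and with the last 2 of these scalings it was over 2-fold, so that 4 members were called. With the same 2 scalings, 1580 and 1745 of the 13825 genes were over 2-fold higher in chondrocytes, against 1504 with TMM. With a fold over 4, 2 members were called, *Fzd9* and *Fzd6*. Of 100 alternative values of the members' folds, 5 moved beyond the counting interval, those of *Fzd1*, *Fzd2* and *Fzd7* with total counts and of *Fzd1* and *Fzd2* with *Actb*. Many of the 100 could not move. The floor of 1 count, no filter and the minimum of 100 counts cannot change a member's fold, and the floor of 10 counts can change only that of *Fzd10*.

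Total counts shifted every log2 fold by −0.14 and *Actb* by 0.12, so that the share of called genes that was higher in chondrocytes went from 41.6% to 34.7% and 47.8%. With total counts the median log2 fold of all pathway lists was −0.15 against −0.02. With a fold over 4, 632 genes were higher in chondrocytes and 866 in dermal fibroblasts, and of the genes in all pathway lists 7 and 10. The planar cell polarity count of 2 higher in chondrocytes was 1 with total counts, and that of 2 higher in dermal fibroblasts was 1 with the upper quartile, without the 10 most abundant genes, with *Actb*, with the pseudocount and with a minimum of 100 counts. With the whole interval beyond 2-fold, 968 genes were higher in chondrocytes, against 1504 by the fold alone.

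The shares of single members depended more on the length used. With plain counts or coding length in place of exon length, 23 of 40 shares moved by more than their counting error. The shares by coding length from GENCODE vM1 were added after seeing the data, in place of coding lengths from a protein table, which were not run. No paired analysis was possible because only 1 library of each cell type was given, and for the same reason no library could be left out. Depth limits *Fzd10*, with 26 counts in all, and the dermal fibroblast value of *Fzd9*, with 29 counts.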
